A study of Mus musculus with 12 samples.

Results

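The comparison described here is that of naive splenic B cells with activated B cells at 33 h after lipopolysaccharide, the last stage sampled before the first division. Its members are the 2 naive and the 2 33 h RNA-Seq libraries, 4 of the 12 libraries in the series, taken by their labels. The other 8 libraries are those of cells at 3 and 10 h, and of expanded cells and plasmablasts on day 4. All cells came from C57BL/6 mice, per the methods young adult males on a Pep3b background, with no transgene stated for these stages. Naive cells received no treatment and were sorted from spleen by surface markers that include TCRβ-, B220+, IgM+ and IgD high. Cells at 33 h had been isolated by negative selection, labelled with the division dye CellTrace Violet, cultured with 25 μg/ml lipopolysaccharide, a bacterial ligand of a Toll-like receptor, and sorted by markers that include TCRβ- and CD69+ and by the highest dye signal, that is, as undivided cells. The way of isolation, the culture and the lipopolysaccharide therefore cannot be told apart in this comparison. The libraries of a stage are biological replicates, and a permutation of 2 against 2 libraries could not go below p = 0.333, so the tests rest on a spread that all 12 libraries share.

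Resting B cells are held in quiescence by transcription factors and cyclin-dependent kinase inhibitors. On activation they pass through an early burst of immediate early and NF-kB target genes, grow, and then enter the cell cycle, where E2F factors drive the genes of the G1/S transition and of DNA replication, while the B-Myb (Mybl2) and Foxm1 complexes drive the genes of G2 and mitosis. In lymphocytes a long growth phase comes before the first division, so that a net change at its end holds both the start of the cycle and what the early burst has left behind.

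Foxm1 (Entrez Gene 14235, chromosome 6, 128362994 to 128375886, GRCm38) was higher at 33 h than at the earlier stages. Its level was 2.44 and 2.46 RPKM (reads scaled by exon length and by TMM-scaled library size) in the naive libraries and 18.7 and 21.3 at 33 h. E2f7 (Entrez Gene 52679, chromosome 10, 110745439 to 110787384), an E2F family repressor that limits the S phase programme, was at 0.243 and 0.283 RPKM in naive cells and at 3.04 and 3.19 at 33 h. For both genes the stages lay far apart and the replicates close together. The log2 fold change was 3.03 (SE 0.12) for Foxm1, with an edgeR glmTreat adjusted p of 1.4e-09, and 3.57 (SE 0.18) for E2f7, with an edgeR glmTreat adjusted p of 6.5e-09. Neither level was approached earlier: Foxm1 was at 4.56 and 4.06 RPKM at 3 h and at 2.36 and 2.02 at 10 h, and E2f7 stayed at or below 0.193 RPKM in the 4 libraries of 3 and 10 h. Neither level was particular to 33 h, since the day 4 libraries were at 23.4 to 40.3 RPKM for Foxm1 and at 3.38 to 4.62 for E2f7. Among 10 genes that define B cells none was at 0 in any of the 4 libraries, although 9 of them were lower at 33 h, as described below.

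Of 12750 genes tested against a fold change of 1.5, 2844 rose from naive cells to 33 h (22.3%) and 2651 fell (20.8%), 43.1% in all. The median log2 fold change was 1.51 among the genes that rose and -1.52 among those that fell. Changes over 4-fold were seen for 937 genes up and 903 down, and changes over 16-fold for 291 up and 261 down, counts that include genes with hardly a read in 1 stage. Over all tested genes, called or not, the quartiles of the log2 fold change were -0.75 and 0.80. The replicates differed less, with a median absolute log2 ratio over the same genes of 0.11 between the naive libraries and 0.17 between the 33 h libraries. Total counts were 38319954 and 29898781 in the naive libraries and 60585587 and 36194490 at 33 h. Levels are relative to the library, and in bulk samples a change in the share of cells that express a gene and a change in RNA per cell cannot be told apart.

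The genes that had risen at 33 h were not all at their height then. Among naive, 3, 10 and 33 h cells, 1664 of the 2844 (58.5%) had their highest mean at 33 h, 569 at 10 h and 611 (21.5%) at 3 h. The choice of genes by their rise keeps the naive stage out of this order and favours 33 h. The 33 h stage held the highest mean of 23.3% of all tested genes, the 3 h stage 29.0% and the 10 h stage 16.4%. The 3 h share of the genes up was thus below that of all tested genes. Of the 2651 genes that had fallen, 1237 (46.7%) were at their lowest at 33 h, 656 (24.7%) at 10 h and 758 (28.6%) at 3 h. For all tested genes the 33 h stage held 22.6% of the lowest means, the 3 h stage 32.2% and the 10 h stage 14.2%. The 3 h share of the genes down was thus also below that of all tested genes. The shares of all tested genes leave room for the naive stage and are no like-for-like baseline. CPM from total counts was also used in place of TMM-scaled CPM. Of the genes up 369 then peaked at 3 h, 822 at 10 h and 1653 at 33 h. Of the genes down 983 were then lowest at 3 h, 521 at 10 h and 1147 at 33 h. The split between 3 and 10 h thus depends on the scaling.

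**Figure D1:**
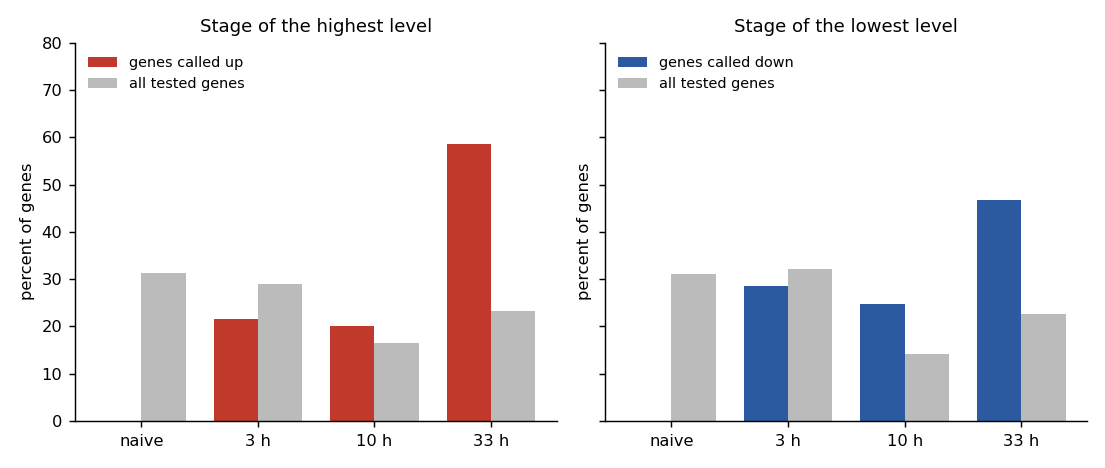
Percent of genes (vertical axis) with their highest mean level (left, genes called up from naive to 33 h) or lowest mean level (right, genes called down) at each undivided stage, with all 12750 tested genes in grey. At 33 h stand 58.5% of the genes called up and 46.7% of the genes called down. The calls shut the naive stage out of the coloured bars and favour 33 h. The grey bars are therefore no like-for-like baseline.

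Gene lists were read against these shares. Leaving aside the markers of other cell types, the largest list medians were those of the cell cycle, and the lowest those of MHC class II, homing receptor and quiescence genes. Lists are described by counts and medians and were not tested as sets.

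**Figure D2:**
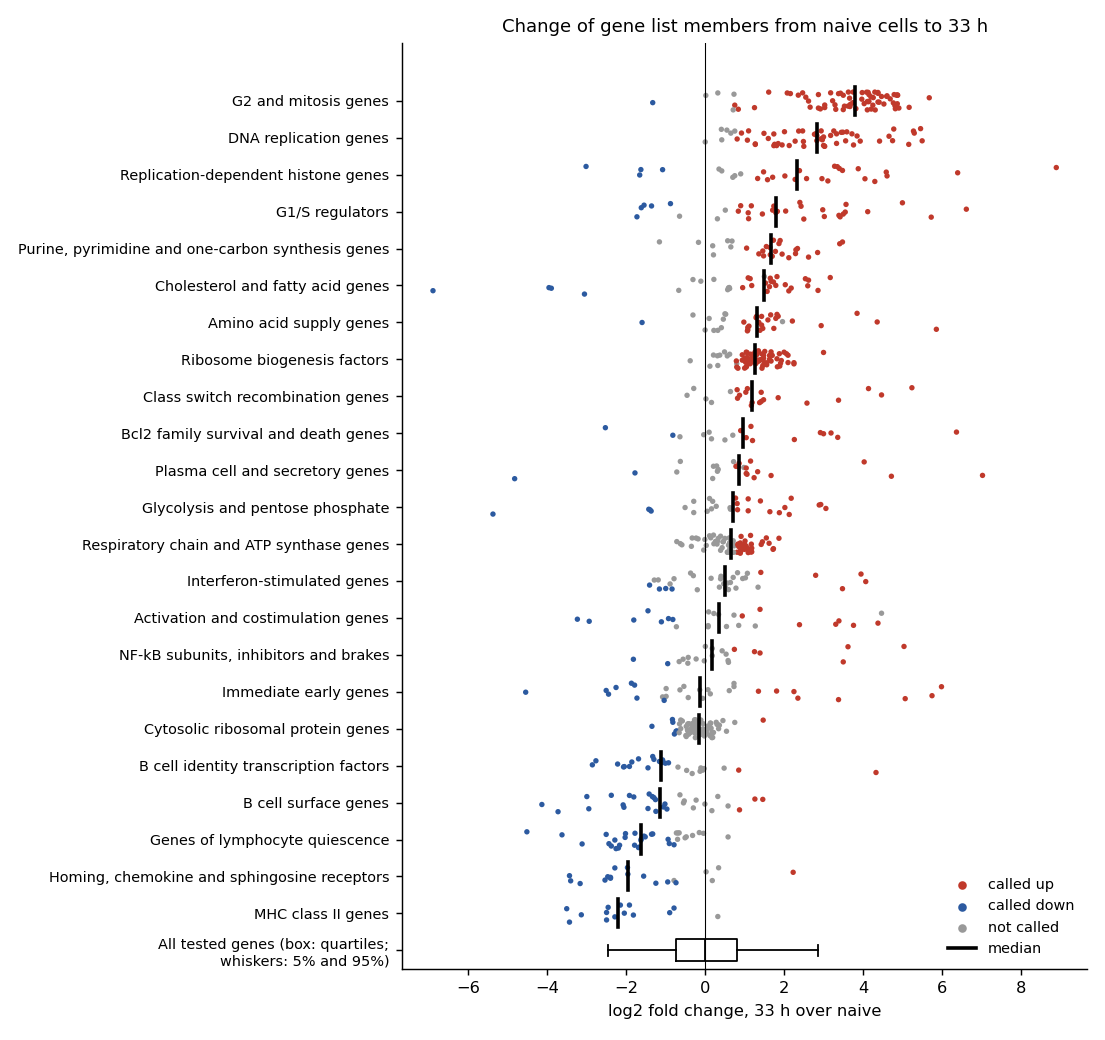
Log2 fold change of 33 h over naive cells (horizontal axis) for every tested member of each gene list, 1 point a gene, with called members in red (up) or blue (down), others in grey, and the median as a bar. The box below shows all 12750 tested genes. Medians run from 3.78 for G2 and mitosis genes to -2.22 for MHC class II genes. Points of genes at the floor in 1 stage show fitted values, which depend on the prior count.

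Regulators of the G1/S transition mostly rose, and the brakes among them went both ways. Of 33 tested regulators 25 rose and 5 fell, with a median log2 fold change of 1.79 against 0.000 over all tested genes. Cyclin D2 (Ccnd2), the D-type cyclin that couples mitogen signals to Cdk4 and Cdk6 in B cells, was at 24.8 and 24.6 RPKM in naive cells and at 180 and 210 at 33 h. It had been higher still at 3 h, at 321 and 274, and its change from 3 h to 33 h did not pass the test (log2 fold change -0.61). Cyclin D3 (Ccnd3) took another course, with 42.6 and 44.1 RPKM in naive cells, then 23 and 30.4 by 3 h, 45.8 and 35.7 by 10 h, and 178 and 177 by 33 h. Cyclin D1 (Ccnd1) stayed a minor transcript and fell by 1.73 on the log2 scale.

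Cyclin E1 (Ccne1), which drives Cdk2 at the start of S phase, was at 3.82 and 3.43 RPKM in naive cells, had dropped to 0.485 and 0.705 at 3 h, and stood at 35.7 and 42.0 at 33 h. Its net log2 fold change was 3.42 (SE 0.16), and that from 3 h to 33 h was 5.97. Of the 8 E2F genes 7 rose, among them E2f1, an activator, from 4.07 and 4.44 to 46.4 and 42.9 RPKM, and E2f8, the partner of E2f7, from 0.776 and 0.840 to 23.8 and 27.7. E2f2 did not pass (0.51), nor did the E2F partner Tfdp2 (-0.65). Among the brakes, p27 (Cdkn1b) fell from 26.3 and 26.9 to 9.43 and 8.73 RPKM, and the pocket protein p130 (Rbl2), which holds E2F targets silent in resting cells, from 26.8 and 24.7 to 11 and 9.02. Both brakes were already down at 3 h, with log2 fold changes of -1.48 and -1.98 from naive cells. Cdkn1c and Cdkn2d were also lower at 33 h than in naive cells, with log2 fold changes of -1.62 and -0.88. Other brakes rose, among them Rbl1 and Cdkn2c, with log2 fold changes of 1.09 and 0.90. Cdkn2a and Cdkn2b, at most 3 reads per naive library, were at least 19.0-fold and 18.3-fold higher at 33 h, at up to 2.16 and 2.25 RPKM, and p21 (Cdkn1a) rose from 0.554 and 0.632 to 3.43 and 6.27 RPKM after 32.4 and 20.7 at 10 h.

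The DNA replication machinery rose almost as a whole. Of 59 tested genes 53 rose and none fell, with a median log2 fold change of 2.83. Together the genes of this list took 0.276% and 0.275% of the counts of retained genes in naive cells, then 0.237% and 0.253% by 3 h, 0.479% and 0.404% by 10 h, and 1.37% and 1.47% by 33 h. Cdc6, which loads the replicative helicase onto origins, was at 0.446 and 0.643 RPKM in naive cells and at 21.4 and 25.8 at 33 h, a log2 fold change of 5.46 (SE 0.24). The helicase subunit Mcm5 started far higher, at 28.4 and 29.0 RPKM, and reached 222 and 248. Mcm10 (log2 fold change 5.50), Orc1 (5.28) and Cdc45 (4.42), which also act at origins, were near the top of the list.

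The supply of deoxynucleotides rose alongside. Rrm2, the S phase subunit of ribonucleotide reductase, went from 3.94 and 3.52 to 118 and 176 RPKM, thymidylate synthase (Tyms) from 0.683 and 0.560 to 20.3 and 24.7, and thymidine kinase 1 (Tk1) from 3.67 and 5.15 to 48.8 and 56.8. Uhrf1, which carries DNA methylation through replication, rose from 4.93 and 6.24 to 137 and 145 RPKM. The sliding clamp Pcna rose from 48.2 and 49.3 to 261 and 286 RPKM. The 6 members that did not pass the test were Orc3, Rpa1, Dck, Rfc1, Cdt1 and Orc5. Cdt1, which licenses origins with Cdc6, was at 36.5 and 35.1 RPKM in naive cells and at 46.0 and 49.2 at 33 h, with a log2 fold change of 0.41 and a 95% interval from 0.16 to 0.66.

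Genes of G2 and mitosis had the largest median of all lists, 3.78, with 69 of 74 tested members up and 1 down. Their share of the counts of retained genes was 0.125% and 0.127% in naive cells and 0.827% and 1.15% at 33 h. The regulator Mybl2 rose from 1.29 and 1.37 to 66.2 and 70.6 RPKM (log2 fold change 5.68, SE 0.17), and unlike most of the list it was up at 3 h as well, at 6.91 and 8.14. Cyclin A2 (Ccna2) rose from 3.91 and 3.79 to 93.4 and 132 RPKM, the topoisomerase Top2a from 9.35 and 9.01 to 148 and 190, and Mki67, the proliferation antigen, from 6.13 and 6.88 to 84.1 and 122. The mitotic kinase Plk1 went from 2.55 and 2.64 to 46.2 and 101, the kinase Cdk1 from 1.55 and 1.31 to 32.0 and 53.2, and Cdc20, the activator of the anaphase-promoting complex, from 6.18 and 5.39 to 39.4 and 92.3.

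The 33 h replicates differed in these late genes. The median log2 ratio of replicate 2 to replicate 1 at 33 h was 0.47 over the G2 and mitosis list, against 0.11 over the replication list and -0.011 over all tested genes. Cyclin B1 (Ccnb1) shows it, with 14.9 RPKM in replicate 1 and 35.0 in replicate 2 after 1.01 and 0.737 in naive cells. Its log2 fold change of 4.81 had an SE of 0.40. Reads of Ccnb1 may be shared with its near copy Ccnb1-ps, which rose by a log2 fold change of 5.13. The 1 member that fell was Cdc25b, a phosphatase that activates Cdk1. It was at 48.5 and 46.2 RPKM in naive cells, at 5.06 and 4.30 at 3 h and at 15.3 and 22.4 at 33 h, so that it was still below naive cells (log2 fold change -1.33) but above 3 h (2.02). The 4 members that did not pass were Cenpa, Fzr1, Lin54 and Pttg1.

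Replication-dependent histone genes, which make the histones of S phase, rose in 21 of 30 tested cases and fell in 4, with a median log2 fold change of 2.33. At 3 h none of the 30 had risen and 5 had fallen. H3c3 had at most 3 reads per naive library, was listed at 31.7 and 42.6 RPKM at 33 h, and was at least 171-fold higher. H2bc11 rose from 0.310 and 0.102 to 16.2 and 22.8 RPKM. Among the 4 that fell, H2ac18 went from 41.9 and 37.8 to 5.04 and 4.79 RPKM. The others were H1f2, H2bc4 and H3c14, with log2 fold changes of -1.63, -1.66 and -1.08. These 4 had more naive reads than any other member. The share of the list in the counts of retained genes was 0.00569% and 0.00552% in naive cells and 0.00923% and 0.0110% at 33 h. These transcripts mostly lack a poly(A) tail and the libraries were made from polyA RNA, the list took no more than 0.0110% of the counts of retained genes in any naive or 33 h library, and near-identical copies may share reads, so their levels are uncertain. With at least 10 counts required in every library, 1 histone gene was called up.

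The promoters of these lists hold letters that the choice of lists did not use. Promoters were read from the RefSeq table for GRCm38.p6, from 250 bases before to 50 after each start, and a gene may have more than 1. The 4 words of the E2F site (TTTCCCGC, TTTCGCGC, TTTGCCGC and TTTGGCGC), the CHR element of late cell cycle genes (TTTGAA), the CCAAT box (CCAAT) and the E-box (CACGTG) were searched on both strands. An E2F word was found in 32.2% of the 59 promoters of replication genes and in 25.0% of the 36 promoters of G1/S regulators, against 3.95% of the 12567 promoters of tested genes and 2.26% of all 32851 promoters in the table. The CHR word was found in 68.8% of the 64 promoters of G2 and mitosis genes, against 12.3% and 17.9%, and CCAAT in 75%, against 37.9% and 37.4%. CCAAT was also found in 92.6% of 27 histone promoters and in 90.9% of 11 promoters of MHC class II genes, a list that fell. Over all genes that rose, an E2F word was found in 6.84% of promoters, and over all that fell in 1.82%. A match is a description of letters and not of a bound site.

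The 200 bases before the start of E2f7 and of the origin genes Mcm5 and Cdc6 are shown because each holds an E2F word, in capitals (other motifs are left in lower case). In Mcm5 the capitals are a pair of overlapping words, 1 on each strand.
E2f7, chr10:110745239-110745438, plus strand: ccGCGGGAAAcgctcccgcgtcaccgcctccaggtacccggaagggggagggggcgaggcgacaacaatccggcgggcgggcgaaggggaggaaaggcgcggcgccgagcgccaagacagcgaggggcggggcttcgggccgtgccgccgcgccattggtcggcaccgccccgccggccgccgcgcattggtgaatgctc
Mcm5, chr8:75109309-75109508, plus strand: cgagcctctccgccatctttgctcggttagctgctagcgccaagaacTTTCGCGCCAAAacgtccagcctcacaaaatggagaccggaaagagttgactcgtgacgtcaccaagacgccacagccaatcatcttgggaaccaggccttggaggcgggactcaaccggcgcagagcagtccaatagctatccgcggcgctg
Cdc6, chr11:98907951-98908150, plus strand: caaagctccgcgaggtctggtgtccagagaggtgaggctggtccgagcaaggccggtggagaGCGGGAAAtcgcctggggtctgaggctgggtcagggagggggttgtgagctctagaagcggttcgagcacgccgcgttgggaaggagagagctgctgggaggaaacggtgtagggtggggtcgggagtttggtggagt

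The same stretch of Cdk1, Cdc20 and Mki67 is shown for the late genes, with CHR and CCAAT words on either strand in capitals. Each of the 3 promoters holds both words within these 200 bases. That of Cdk1 also holds an E2F word, TTTCGCGC, which is left in lower case.
Cdk1, chr10:69352913-69353112, minus strand: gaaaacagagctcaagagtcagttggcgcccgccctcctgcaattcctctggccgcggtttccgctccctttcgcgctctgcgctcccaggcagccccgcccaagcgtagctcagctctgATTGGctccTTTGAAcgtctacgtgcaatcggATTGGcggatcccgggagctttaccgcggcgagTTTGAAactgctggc
Cdc20, chr4:118437344-118437543, minus strand: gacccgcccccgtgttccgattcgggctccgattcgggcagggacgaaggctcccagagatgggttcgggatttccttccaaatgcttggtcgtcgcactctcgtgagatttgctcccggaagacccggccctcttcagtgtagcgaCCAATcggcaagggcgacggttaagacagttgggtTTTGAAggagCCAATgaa
Mki67, chr7:135716380-135716579, minus strand: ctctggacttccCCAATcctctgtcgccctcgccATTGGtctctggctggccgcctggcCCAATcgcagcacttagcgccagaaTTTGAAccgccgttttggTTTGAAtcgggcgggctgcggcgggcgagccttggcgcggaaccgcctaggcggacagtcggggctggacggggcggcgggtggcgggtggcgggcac

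**Figure D3:**
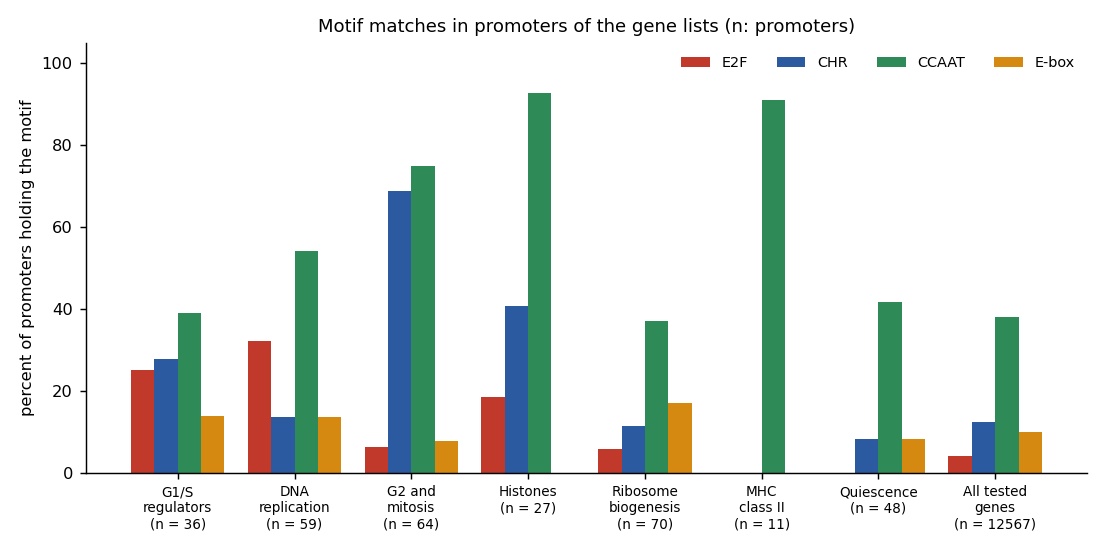
Percent of promoters (vertical axis) that hold an E2F, CHR, CCAAT or E-box word on either strand, for 7 gene lists and for all tested genes, with the number of promoters under each. E2F stands highest in the replication list (32.2%) and CHR in the G2 and mitosis list (68.8%), against 3.95% and 12.3% of all tested genes.

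The genes of lymphocyte quiescence formed the counterpart. Of 35 tested members 25 fell and none rose, with a median log2 fold change of -1.62. Klf2, which keeps lymphocytes resting and in circulation, fell from 525 and 471 RPKM to 106 and 68.6. Txnip, a brake on glucose uptake, fell from 196 and 202 to 18 and 14, and the antiproliferative gene Btg1 from 182 and 176 to 23.8 and 17.3. The order in time differed between them. Klf2 and Txnip were already down at 3 h, at 98.6 and 63.5 and at 18.2 and 24.1 RPKM, while Btg1 stood at 261 and 227 at 3 h and fell by 3.57 on the log2 scale from 3 h to 33 h. Foxo1, the quiescence factor that also sustains B cell identity, fell from 111 and 111 to 38.6 and 30.0 RPKM, and Klf4 by 4.52 on the log2 scale.

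Receptors that place B cells in tissue fell as well, in 14 of 19 tested cases, with a median of -1.96. The egress receptor S1pr1 fell from 158 and 161 RPKM to 19.2 and 10.8. Ccr7, the receptor for T zone chemokines, had first risen to 1056 and 1067 RPKM at 3 h from 182 and 159, and then stood below the naive level at 85.9 and 57.3 (log2 fold change -1.25, SE 0.15). Gpr183 and Cxcr5, which guide cells within follicles, followed the same course, with 3 h log2 fold changes of 1.43 and 1.41 and net changes of -1.97 and -0.95. The integrin gene Itgb7 went from 148 and 155 RPKM to 1.69 and 0.959 at 10 h and was at 17.7 and 10.1 at 33 h. Itgb1, another integrin, was the 1 member that rose, from 15.8 and 15.8 to 71.5 and 76.9 RPKM.

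Genes that define B cells were lower without being lost. Of 27 transcription factors of B cell identity 17 fell and 2 rose, with a median log2 fold change of -1.11. Pax5 fell from 408 and 385 to 168 and 123 RPKM, Ebf1 from 83.2 and 84.0 to 42.5 and 34.4, and Ets1 from 307 and 294 to 46.7 and 36.2. Bcl6, the factor of germinal centre cells, fell by 2.07 on the log2 scale. Bach2, which restrains plasma cell fate, fell from 37.9 and 36.8 to 22.0 and 17.2 RPKM, with an edgeR glmTreat adjusted p of 0.030 that became 0.20 without replicate 2 of 33 h, 0.077 without naive replicate 1, 0.059 without naive replicate 2 and 0.10 with DESeq2. Irf8 was at 178 and 189 RPKM before and at 195 and 165 after, with a 95% interval of the log2 fold change from -0.21 to 0.16. Mef2b, which acts with Bcl6 in activated B cells, rose from 3.08 and 2.31 to 46.6 and 63.6 RPKM.

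On the cell surface 18 of 30 tested B cell genes fell and 3 rose (median -1.15). The signalling chain Cd79a fell from 2533 and 2351 to 767 and 627 RPKM, the low-affinity IgE receptor Fcer2a from 761 and 819 to 125 and 79.3, and the complement regulator Cd55 from 121 and 130 to 8.15 and 6.01. Ighd, the constant gene of IgD, fell from 2879 and 2893 to 473 and 246. Ighm was at 5407 and 5506 RPKM in naive cells and at 5366 and 6891 at 33 h, and did not pass the test. The inhibitory receptor Cd22 was at 413 and 414 RPKM in naive cells, at 38.2 and 40.1 at 3 h and at 238 and 171 at 33 h, so that its net change of -1.02 came after a rise of 2.38 from 3 h. Fcgr2b, the inhibitory IgG receptor, rose from 54.7 and 53.2 to 154 and 144 RPKM. The gates selected on IgD, IgM and B220 in naive cells and on CD69 at 33 h, so that the values of Ighd, Ighm, Ptprc and Cd69 are those of gated markers.

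MHC class II genes, which present antigen to helper T cells, fell in 13 of 14 tested cases with a median of -2.22. H2-Aa, the alpha chain of I-A, was at 7786 and 7794 RPKM in naive cells, then 6308 and 6791 by 3 h, 619 and 496 by 10 h, and 1574 and 1174 by 33 h. The invariant chain Cd74 went from 22252 and 21011 to 6485 and 4983 RPKM, by way of 3161 and 3023 at 10 h. Both were thus lower at 10 h than at 33 h. Ciita, itself a member of the list and the coactivator of MHC class II genes, was down earlier. It was at 138 and 133 RPKM in naive cells, at 17.5 and 28.5 at 3 h and at 39.3 and 26.0 at 33 h. The list took 5.82% and 5.58% of the counts of retained genes in naive cells and 1.59% and 1.19% at 33 h, and its median log2 ratio of replicate 2 to replicate 1 at 33 h was -0.40.

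The early burst was compared with the net state through the 3 h and 10 h libraries, which were set against the same naive libraries. From naive cells to 3 h, 21.0% of all tested genes rose and 24.3% fell (45.3% in all), and from naive cells to 10 h 19.5% rose and 19.9% fell (39.4% in all). From 3 h to 33 h 23.7% rose and 19.2% fell (43.0% in all). Of 29 immediate early genes 17 had risen at 3 h (median 2.49), while at 33 h 8 were above naive cells and 8 below, with a median of -0.14, and 23 of 29 fell from 3 h to 33 h. Of 21 NF-kB genes 17 had risen at 3 h (median 1.91) and 6 at 33 h (median 0.18), with 16 falling from 3 h to 33 h. Of 25 genes for activation receptors and costimulation 16 had risen at 3 h (median 2.63), against 7 up and 7 down at 33 h, with 18 falling from 3 h to 33 h. The median of that list at 33 h was 0.34, or 0.22 with the 1 gene at the floor set to its bound.

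**Figure D4:**
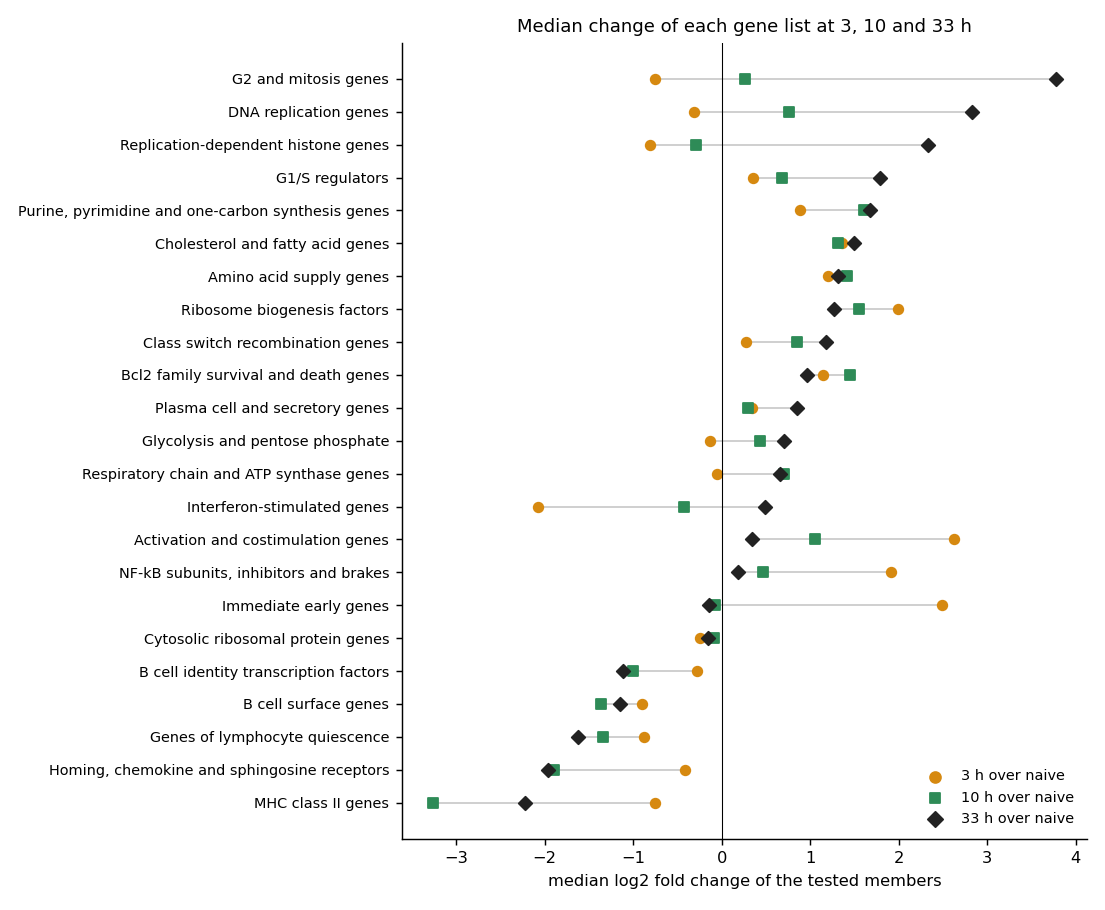
Median log2 fold change over naive cells (horizontal axis) of the tested members of each gene list at 3 h (circles), 10 h (squares) and 33 h (diamonds). The immediate early, NF-kB and activation lists lie between 1.91 and 2.63 at 3 h and between -0.14 and 0.34 at 33 h, whereas the cell cycle lists lie farthest to the right at 33 h.

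Genes of the burst ended in different places. Nr4a1, an orphan receptor induced by antigen receptor signals, was at 11.5 and 10.8 RPKM in naive cells, at 495 and 308 at 3 h, and at 8.61 and 5.56 at 33 h. Junb, an AP-1 subunit, was at 79.5 and 73.4 in naive cells, at 462 and 395 at 3 h, and at 89.0 and 77.9 at 33 h, with a 95% interval of its net log2 fold change from -0.25 to 0.50. Neither passed the test for the net change. Myc, the growth regulator, had gone from 31.1 and 28.9 RPKM to 835 and 706 at 3 h and kept part of its rise, at 74.2 and 78.5 (log2 fold change 1.35, SE 0.12). Atf3, a stress-induced repressor, rose throughout, from 0.194 and 0.216 to 2.06 and 2.69 at 3 h, 9.41 and 6.63 at 10 h, and 13.3 and 12.8 at 33 h. Others ended below naive cells, among them Dusp6, a phosphatase of the ERK kinases (-2.51), and Fosb (-4.55). Fos and Egr2 fell by 2.45 and 1.79, but their edgeR glmTreat adjusted p, 0.0079 and 0.011, became 0.062 and 0.065 without replicate 2 of 33 h, and that of Egr2 was 0.052 without replicate 1 of 33 h.

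In the NF-kB list Nfkbiz, an inducible nuclear regulator, was at 1.20 and 1.01 RPKM in naive cells, then 545 and 468 by 3 h, 88.5 and 90.8 by 10 h, and 39.2 and 33.8 by 33 h. Its net log2 fold change of 5.04 (SE 0.14) was thus what remained after a fall of 3.79 from 3 h. Traf1, a signalling adaptor, kept much of its early level, at 202 and 212 RPKM at 3 h and 99.7 and 103 at 33 h after 8.60 and 7.85 in naive cells. Of the subunits, Nfkb1 was at 92.0 and 96.1 before and 132 and 121 after, Nfkb2 at 111 and 112 before and 102 and 89.0 after, and Rel at 33.3 and 29.5 before and 21.3 and 18.5 after, none of which passed the test. Bcl3, a nuclear IkB protein, rose from 48.9 and 43.3 to 82.5 and 71.1, a call at an edgeR glmTreat adjusted p of 0.049 that was lost in 8 of 15 alternatives, among them the fits without naive replicate 2 (0.21) and without 33 h replicate 1 (0.25). Map3k14, the kinase of the noncanonical pathway, fell by 1.82 on the log2 scale.

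**Figure D5:**
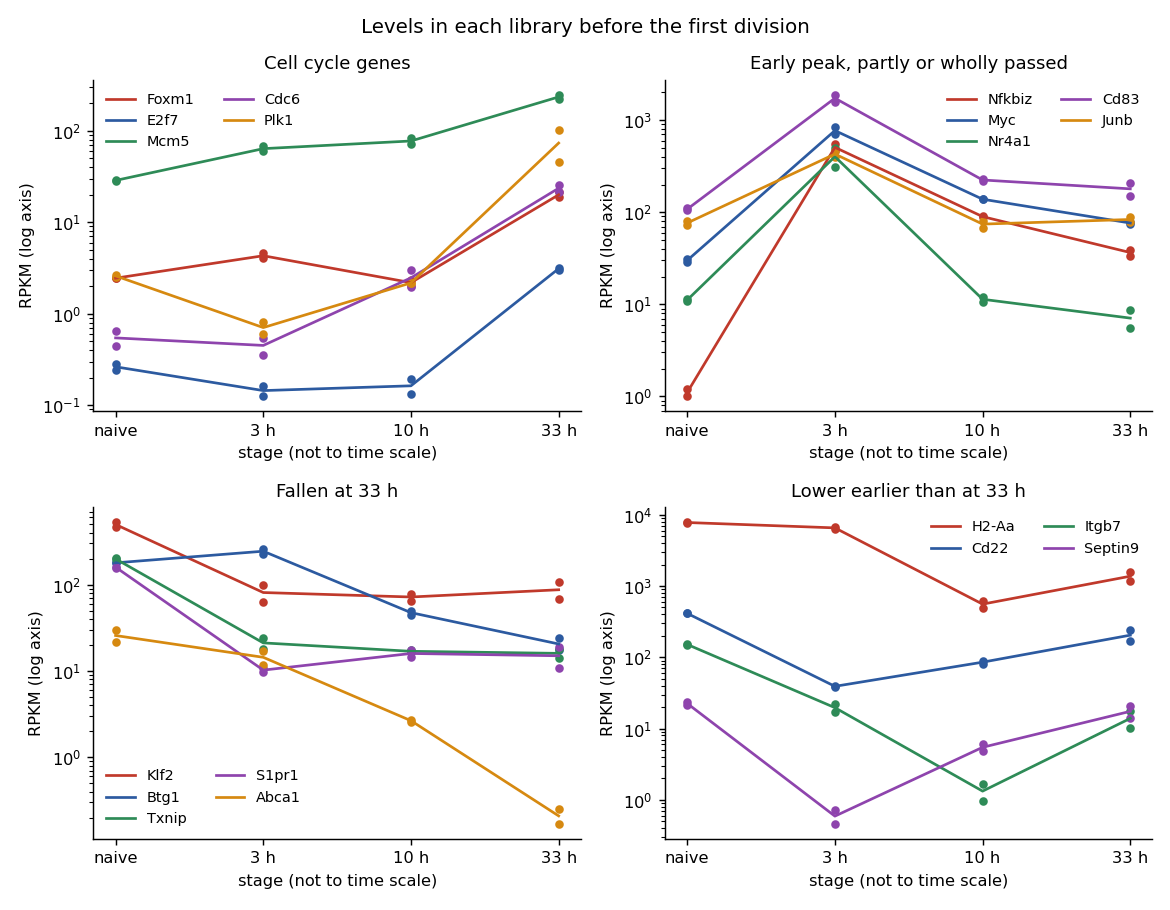
Level in RPKM (log axis) of 19 genes in each library of the 4 undivided stages, with points for the 2 libraries and lines through their means. Nr4a1 and Junb are back near naive values at 33 h, Nfkbiz and Myc remain above them, and Foxm1, E2f7, Cdc6 and Plk1 are highest at 33 h.

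Among the surface genes of activation, Cd83, a marker of activated B cells, was at 106 and 110 RPKM in naive cells, 1885 and 1579 at 3 h, and 210 and 149 at 33 h, and did not pass the test for the net change (edgeR glmTreat adjusted p of 0.12, with 0.004 without replicate 2 of 33 h and 0.027 without a filter on low counts). Cd86, a ligand of Cd28, was at 13.4 and 13.7 in naive cells, then 117 and 116 by 3 h and 17.2 and 14.3 by 33 h. The sort marker Cd69 showed 35.2 and 32.5 RPKM in naive cells, 269 and 263 at 3 h and 16.9 and 14.6 at 33 h, a net log2 fold change of -1.11 in cells that were gated on the protein. Tfrc, which takes up iron, went from 2.57 and 3.09 to 50.8 and 66.8 RPKM (log2 fold change 4.38), and Il2ra, the alpha chain of the IL-2 receptor, from 0.894 and 0.832 to 9.06 and 8.14 after 159 and 141 at 3 h. Other cytokine receptors of the list did not rise, with log2 fold changes of -1.81 for Il4ra, which fell, and 0.074 for Il21r, which did not pass. Icosl, the ligand of Icos on T cells, fell from 74.3 and 76.3 to 9.81 and 5.97 RPKM. Cd44 rose by 0.94, with an edgeR glmTreat adjusted p of 0.0054 that became 0.098 without replicate 2 of 33 h.

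Some genes had dipped early and returned. Of 32 interferon-stimulated genes 21 had fallen at 3 h and 1 had risen, with a median of -2.07, whereas at 33 h 5 were up and 4 down, with a median of 0.49, and 27 rose from 3 h to 33 h. Isg15, a ubiquitin-like modifier, did not share the dip, with 8.40 and 8.51 RPKM in naive cells, then 48.3 and 36.6 by 3 h and 134 and 127 by 33 h. The replicates at 33 h differed in this list, with a median log2 ratio of replicate 2 to replicate 1 of -0.49, and the number down ran from 2 (without replicate 2 of 33 h, and without naive replicate 2) to 7 (without replicate 1 of 33 h). Septin9, a cytoskeletal gene, was the gene with the largest fall at 3 h among genes with an average of at least 5 log2 CPM. It went from 23.6 and 21.4 RPKM to 0.719 and 0.462 and was back at 14.1 and 20.8 at 33 h, with a 95% interval of the net log2 fold change from -0.74 to 0.004. Hhex, a B cell homeobox factor, and Ceacam1 returned in part, with net changes of -1.92 and -1.17 after -4.96 and -4.61 at 3 h.

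The machinery of growth stayed up. Of 70 tested ribosome biogenesis factors 60 had risen at 33 h and none had fallen (median 1.27), next to 62 up at 3 h (median 1.99) and 62 up at 10 h (median 1.55), and 25 fell from 3 h to 33 h while 1 rose. Nucleolin (Ncl) was at 159 and 164 RPKM in naive cells, 752 and 722 at 3 h and 467 and 583 at 33 h. Fibrillarin (Fbl), the methyltransferase of ribosomal RNA, was at 23.6 and 28 in naive cells and 55.0 and 58.9 at 33 h. The genes of the cytosolic ribosomal proteins did not move with them. Of 71 tested 1 rose and 6 fell, with a median of -0.15, and copies of these genes elsewhere in the genome make single values uncertain.

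Metabolic genes rose in several branches. Of 28 genes of purine, pyrimidine and single-carbon synthesis 21 rose and none fell (median 1.68), including Shmt2, a mitochondrial enzyme of the folate cycle, from 44.8 and 47.6 to 207 and 247 RPKM, and Mthfd2, which acts next to it, from 8.73 and 8.71 to 84.0 and 102. Of 35 genes of amino acid supply 24 rose and 1 fell (median 1.31). The amino acid transporter Slc7a5 rose from 13.4 and 13.5 to 86.9 and 119 RPKM, while its partner chain Slc3a2 was at 48.8 and 46.5 before and 63.4 and 73.7 after and did not pass. Asparagine synthetase (Asns) rose from 0.169 and 0.302 to 9.27 and 17.6, and Ddit3, a factor of the stress response to amino acid lack, was the 1 gene that fell (-1.60).

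Lipid genes split by function. Of 33 tested genes 20 rose, most of them in cholesterol and fatty acid synthesis, such as Idi1 from 4.11 and 4.65 to 38.6 and 40.2 RPKM and Hmgcs1 from 12.3 and 12.9 to 57.1 and 52.2 by way of 122 and 206 at 3 h. The 4 that fell were the efflux pumps Abca1 and Abcg1, Mylip, which degrades the LDL receptor, and their regulator Nr1h3, the sterol sensor LXR alpha. Nr1h3 had few reads, 31 and 30 in naive cells and 4 and 7 at 33 h. Nr1h2 (LXR beta), with 4673 and 3570 naive reads, did not pass (-0.67). Abca1 fell from 29.8 and 21.7 RPKM to 0.249 and 0.170, the lowest log2 fold change (-6.90) among the genes named for a large fall at an average of at least 5 log2 CPM. Apoe, a carrier of cholesterol outside this list, fell from 310 and 239 to 18.7 and 14.1 RPKM.

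In energy metabolism 14 of 28 genes of glucose use rose and 4 fell, with a median of 0.71 (0.77 with its genes at the floor set to their bounds). Lactate dehydrogenase A (Ldha) rose from 155 and 170 to 631 and 797 RPKM, pyruvate kinase (Pkm) from 189 and 193 to 515 and 676, and the hexokinase Hk2 from 1.37 and 1.17 to 9.08 and 12.2. The transporter Slc2a1 was at 21.0 and 20.9 in naive cells and 15.6 and 18.7 at 33 h and did not pass. Another glucose transporter, Slc2a3, fell (log2 fold change -1.40). The other members that fell were Hk3, Slc16a3 and Pfkfb4. Hk3 had 57 and 33 reads in naive cells and was at the floor at 33 h, with 2 and 1. Slc16a3 had 63 and 37 reads and then 34 and 23. Of 69 nuclear genes of the respiratory chain 30 rose and none fell (median 0.66), with cytochrome c (Cycs) from 5.17 and 5.56 to 15.8 and 19.6 RPKM.

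Some genes of plasma cell differentiation were up before division. Prdm1, which encodes Blimp1, the factor of plasma cell fate, was at 0.603 and 0.475 RPKM in naive cells, 4.32 and 5.40 at 10 h, and 6.42 and 11.5 at 33 h, a log2 fold change of 4.03 (SE 0.28). Zbtb32, a repressor found in activated B cells, rose more than any other gene of at least 5 average log2 CPM, from 0.965 and 1.31 to 126 and 169 RPKM (7.03, SE 0.43). Irf4, which has roles in both activation and plasma cell fate, was at 54.1 and 52.3 in naive cells, then 709 and 519 by 3 h and 73.3 and 102 by 33 h, and Xbp1, the factor of the secretory pathway, at 68.3 and 71.9 before and 109 and 168 after. Neither passed (edgeR glmTreat adjusted p of 0.16 and 0.073), but both did without replicate 1 of 33 h (0.016 and 0.029) and without a filter on low counts (0.03 and 2.4e-06), and Xbp1 also in a fit of only the 4 libraries (0.029). Of 24 genes of the plasma cell list 13 rose, 2 fell and 9 did not pass (median 0.85), so the list did not rise as a whole. The 2 that fell are surface markers of plasma cells. Of these, Tnfrsf17 had only 5 and 1 reads in naive cells and 0 and 0 at 33 h. Its call was lost with the newer quasi-likelihood method (edgeR glmTreat adjusted p of 0.052). Several of the 13 are genes of the secretory pathway, such as Hspa5, Hsp90b1 and Calr, with log2 fold changes of 1.24, 1.67 and 0.78. Replicate 2 was higher at 33 h (median log2 ratio 0.40), and the number up was 8 without replicate 2 and 15 without replicate 1.

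Of the 22 tested genes of the class switching list 17 rose and none fell (median 1.18), several of which also serve DNA repair in replicating cells. Of 18 genes of the Bcl2 family 10 rose and 2 fell (median 0.97). The survival gene Bcl2l1 was at 3.21 and 3.37 RPKM in naive cells, 435 and 356 at 3 h, and 26.3 and 33.6 at 33 h. Bcl2 itself was at 21.2 and 17.8 in naive cells, then 2.93 and 4.35 by 3 h and 13.6 and 11.3 by 33 h, and did not pass. Of the members that promote cell death, Bbc3 (Puma) rose from 2.33 and 1.53 RPKM to 17.1 and 14.3, after 51.9 and 47.4 at 10 h. Bax, Bid and Pmaip1 (Noxa) rose as well, with log2 fold changes of 1.20, 1.16 and 0.90, and Bik was at least 2.99-fold higher. Bmf fell from 22.8 and 22.6 to 4.47 and 3.36. Bcl2l11 (Bim) was at 13.9 and 14.4 before and 13.9 and 13.7 after and did not pass, nor did Bad (0.16) and Bak1 (0.70). Mcl1 fell by 0.82, with an edgeR glmTreat adjusted p of 0.015 that became 0.16 without replicate 2 of 33 h and 0.069 without naive replicate 1. The Bcl2a1 genes are near copies and may share reads.

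Of the genes that rose, 208 had at most 3 reads in each naive library. Il10, the gene of the regulatory cytokine IL-10, had 15.4 and 22.0 RPKM at 33 h and was at least 232-fold higher. It was already at 9.48 and 11.3 at 3 h. Fads2, a fatty acid desaturase, was also at least 232-fold higher, at 16.5 and 13.7 RPKM, but was at 0.148 and 0.501 at 3 h. Vash1 was at least 209-fold higher.

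Of the genes that fell, 238 had at most 3 reads in each 33 h library, and the 5 of these with the highest naive CPM, Lyz2, Ngp, S100a9, Ltf and S100a8, are genes of neutrophils and macrophages. Lyz2 was at 141 and 60.2 RPKM in naive cells and had no read at 33 h, at least 1735-fold lower. Marker lists of other cells were summed in CPM of total counts. The 15 myeloid markers summed to 295 and 139 in naive cells and to 32.5 and 23.8 at 33 h, with 13 down. Itgam and Adgre1, the myeloid markers that did not pass, held most of what was left, with 1087 and 490 and with 637 and 241 reads at 33 h. Erythroid markers summed to 239 and 181 and then to 6.19 and 7.38, with all 6 tested down, NK cell markers to 22.2 and 18.8 and then to 1.62 and 1.22, with all 8 down, and T cell markers to 66.4 and 71.6 and then to 28.9 and 23.7, with 7 of 10 tested down. Lck held most of the T cell sum, with 2291 and 1916 reads in naive cells and 1659 and 814 at 33 h. Cd3d, Cd3g, Cd4 and Cd8a had at most 1 read per library at 33 h. Tcf7 kept 33 and 11 reads, Lat 31 and 20, Cd8b1 13 and 3, and Cd28 9 and 6. Of these, Lat, Cd8b1 and Cd28 did not pass. The 10 B cell markers summed to 12786 and 12421 in naive cells and to 6372 and 5097 at 33 h. The part of these other cells in the genes that fell was not tested.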

How the data were processed

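RNA-Seq counts were analysed for 12 libraries of mouse B cells, 2 for each of 6 stages. The authors sequenced TruSeq libraries of polyA RNA, aligned the reads to mm10 with Rsubread 1.28.0 and counted them with featureCounts on its inbuilt Entrez annotation, and the deposited values are these raw counts with exon lengths. CASAVA 1.8.2 is named in the submitters' processing notes. Whether counting used strand is not given in the sources used here, so overlapping and antisense genes are uncertain.

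Of 27179 gene IDs, 1904 without an annotation match, 33 ribosomal RNA, 1279 X and Y chromosome, 15 mitochondrial and 248 variable immunoglobulin genes were removed, as the study's methods do, and 12750 of the remaining 23700 passed filterByExpr. Retained genes held 84% to 90.6% of the counts, which totalled 23026619 to 60585587 per library. In R 4.3.3, edgeR 4.0.16 (with limma 3.58.1) was used with TMM scaling, a single layout of all 6 stages and robust quasi-likelihood dispersions. The glmTreat threshold was a fold change of 1.5, and p-values were adjusted by Benjamini-Hochberg over all tested genes at 0.05. Standard errors of log2 fold changes come from the quasi-likelihood F-test. From the deposited counts, RPKM and log2 CPM were then calculated with TMM-scaled library sizes and, for RPKM, exon lengths. The floor of a stage was at most 3 counts in each of its libraries, and folds against it are bounds computed at 3 counts per library.

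Genes were named by lists, by the largest changes overall at an average of at least 5 log2 CPM and within each list, by the highest CPM in the other stage among genes at the floor, and by the largest changes at 3 h. Further list members were named after their values were seen. The members and lists were chosen with earlier results of these data known. Alternatives were DESeq2 1.42.0, other scalings, filters and tests, a replicate block, and leaving out each library. The scripts were tested on simulated counts. Some genes and sort markers are not reported here.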

Additional observations from a re-analysis of the deposited data

How the results depend on the processing

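With no fold threshold (quasi-likelihood F-test), 4567 genes were up and 4480 down. In the other settings 2154 to 3011 genes were up and 2005 to 2842 down, and the share up among calls ran from 48.7% to 55.4%. The same F-test called 13 immediate early genes down, 7 NF-kB genes down, 7 ribosomal protein genes up and 32 down, 55 respiratory genes up, 2 amino acid supply genes down, 2 homing genes up, and 10 interferon-stimulated genes up and 7 down. It tests any size of change. Requiring at least 10 counts in every library, which removes genes silent in 1 stage, left 1 histone gene and 5 immediate early genes up, 1 plasma cell gene down, and 1 T cell, 1 myeloid, 0 erythroid and 1 NK cell marker down. Without a filter on low counts 9 interferon-stimulated genes were up and 7 down, and in a fit of only the 4 libraries 8 were up. That fit and the newer quasi-likelihood method each left 1 plasma cell gene down, and DESeq2's Wald test 1 B cell identity factor up. The cause was not tested for these. Leaving out 1 library gave 2518 to 2868 genes up and 2169 to 2663 down, 5 to 9 immediate early genes down, 1 to 2 ribosomal protein genes up and 3 to 6 down, 8 to 15 plasma cell genes up and 1 to 2 down, 1 to 2 Bcl2 family genes down, and 2 to 7 interferon-stimulated genes down. A floor of 10 counts in place of 3 gave 379 genes up from the floor and 419 down to it. With CPM from total counts, 369 genes up peaked at 3 h.

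With the replicate number as a block 2830 genes were up and 2649 down. Whether replicate numbers pair the samples was not settled. Deviations of same-numbered naive and 33 h libraries had a correlation of -0.000, and over all stage pairs it ran from -0.23 to 0.17. A low correlation cannot show that same-numbered libraries had separate sources. Among 204 named genes the block ended the call of Bcl3 (edgeR glmTreat adjusted p of 0.055). Over 15 alternatives no named gene that passed in either setting turned its direction, and 37 calls were lost and 20 gained.

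Libraries of 29898781 counts or more limit mainly the genes near the floor. The 2 libraries per stage limit the precision of every fold change.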
